A study of Mus musculus with 20 samples.

Results

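Of the 5683 genomic regions called as bound by the homeodomain transcription factor NKX2-1 in the embryonic mouse basal ganglia, 540 overlapped no LHX6 peak and none of the regions that mark promoters and active or primed enhancers. They were found by merging NKX2-1 summits that shared a start and an end on chromosomes 1 to 19 and X, and by then removing every peak that touched, by at least 1 base, an LHX6 peak, an H3K4me3 region of either genotype, or an H3K27ac or H3K4me1 region of wild type. Removing LHX6 peaks left 4649 regions, removing wild-type H3K4me3 left 1598, removing mutant H3K4me3 left 1422, removing wild-type H3K27ac left 873 and removing wild-type H3K4me1 left the 540 unmarked peaks. The peaks were thus chosen by measured values, the presence of called regions, and their lack of those marks and of LHX6 is the choice itself and not a result.

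NKX2-1 and LHX6 were precipitated with polyclonal antibodies from dissociated basal ganglia of wild-type CD-1 mice at embryonic day 13.5. The histone marks came from sonicated nuclei of the medial ganglionic eminence (MGE) of C57BL/6 mice of the same day, either wild type or Nkx2-1cKO (conditional loss of Nkx2-1, below the mutant). The labels do not give the Cre line of the mutant, and factor and mark libraries differ in both strain and dissection, so an unmarked peak and a difference of strain or dissected cells cannot be told apart. Each antibody and genotype has 1 peak list, made from merged alignments according to the headers, so there is no replicate error and no test between genotypes. Shares are given with exact 95% Clopper-Pearson intervals, which cover counting error only. After the authors' removal of duplicates the 10 libraries held 26.8 to 89.1 M (mega) ChIP tags, with 89.1 M for NKX2-1, 50.7 M for LHX6, 50.2 M for wild-type H3K27me3 and 46.7 M for mutant H3K27me3. The larger of a ChIP and its input library was scaled down to the smaller. As a check of the dissection, wild-type H3K27ac covered a TSS of 26 of 34 MGE and ventral telencephalic transcription factor genes, 20 of 29 genes of lateral and caudal ganglionic eminence identity, 1 of 16 pallial, 1 of 6 microglial and 1 of 12 endothelial, mural and blood genes, and in the mutant these counts were 27, 23, 5, 1 and 2.

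NKX2-1 specifies the MGE, the ventral forebrain zone that gives rise to cortical and striatal interneurons and to pallidal and cholinergic neurons, and LHX6 acts after it in the interneuron lineage. Factors of the NK2 class bind a short core with the sequence CACTTGA or CACTCAA, read on either strand, whereas most other homeodomains bind sites that contain TAAT. H3K27ac marks active promoters and enhancers, H3K4me1 marks enhancers whether active or primed, and H3K4me3 marks promoters. H3K27me3 is laid down by Polycomb repressive complex 2 and covers developmental genes that are held silent.

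To show the NK2 core in place, 6 unmarked peaks that hold one are printed over 121 bases around the summit. The build is NCBIM37 (mm9), read 5′ to 3′, with NK2 cores in capitals (a core on the opposite strand reads TCAAGTG or TTGAGTG). The 6 were picked for having a core, which 333 of the 540 unmarked peaks lack, among them the strong peaks near Cblb and Gm6189. The printed peaks are the 2 strongest, which lay between genes, 2 further peaks with a mark in the mutant, and 2 peaks near the guidance receptor gene Nrp1.
Peak between Snx13 and Ahr, chr12:36068137-36068257, minus strand: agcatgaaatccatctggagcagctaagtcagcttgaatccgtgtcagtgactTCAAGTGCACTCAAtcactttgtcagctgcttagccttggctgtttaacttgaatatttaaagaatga
Peak near Lama4, chr10:38077718-38077838, plus strand: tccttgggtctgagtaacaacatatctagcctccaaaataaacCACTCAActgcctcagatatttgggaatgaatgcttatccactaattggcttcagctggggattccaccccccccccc
Peak near Snx19, chr9:30288176-30288296, plus strand: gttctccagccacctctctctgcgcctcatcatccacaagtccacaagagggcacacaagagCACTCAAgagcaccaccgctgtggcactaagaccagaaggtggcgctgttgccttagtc
Peak near Sox12, chr2:152218747-152218867, minus strand: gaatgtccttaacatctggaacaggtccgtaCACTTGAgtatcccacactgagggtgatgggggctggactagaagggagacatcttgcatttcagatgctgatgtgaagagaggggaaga
Outer peak near Nrp1, chr8:130852906-130853026, minus strand: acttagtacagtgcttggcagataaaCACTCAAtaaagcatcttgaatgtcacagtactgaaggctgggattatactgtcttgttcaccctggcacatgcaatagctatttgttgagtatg
Inner peak near Nrp1, chr8:130861254-130861374, minus strand: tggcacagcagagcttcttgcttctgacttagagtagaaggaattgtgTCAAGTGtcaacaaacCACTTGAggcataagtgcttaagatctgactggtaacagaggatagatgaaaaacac

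In the strongest peak the cores of opposite strands abut, 3 bases from the summit. That peak, chr12:36067996-36068397, had a fold enrichment of 13.4 over input and a −log10 p of 105, both the authors' values, and lay 236 kb from the end of Snx13 and 114 kb from Ahr, the gene of a ligand-activated bHLH-PAS factor. The next, chr10:38077548-38078002, had a fold of 11.8 and a −log10 p of 87.1 and lay 608 kb from the start of Lama4, which encodes a laminin chain.

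Most of the unmarked peaks were weaker than these. Their median −log10 p was 13.2, against 15.9 over all NKX2-1 peaks, and their median fold was 3.96 against 4.34. Only 12 of them (2.22%) fell among the strongest 10% of the NKX2-1 list and 99 (18.3%) fell among the weakest 10%. The median length was 298 bases. The other 10 of the 12 strongest had folds of 7.14 to 9.11. By nearest protein-coding transcription start site (TSS) they belonged to Zfp229, Cblb, Gm6189, Gm11143, Rpl17-ps3, Braf, Rab28, Tesk2, Snx19 and Smyd2. The peaks of Braf, Tesk2 and Smyd2 were intronic. The peak of Cblb, a ubiquitin ligase gene, lay 3.38 kb from that gene and 37.6 kb from Alcam, a cell adhesion gene.

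The NK2 core was present within 200 bases centered on the summit of 207 of the 540 unmarked peaks, or 38.3% (interval 34.2 to 42.6%), against 21.4% of all 5683 NKX2-1 peaks. In the same windows moved 1 kb to either side of the unmarked summits the share was 5.37% (4.10 to 6.89%), and over 1277852 windows of 200 bases laid across the genome it was 5.26%. Peak choice did not use sequence, but the peaks compared are from 1 library and share its depth. Among other NKX2-1-only distal peaks, the share was 39.6% (34.3 to 45.1%) of 333 with wild-type H3K4me1 but no H3K27ac, and 25.5% (21.9 to 29.4%) of 549 with wild-type H3K27ac. It was 11.5% (8.69 to 14.8%) of 453 peaks that LHX6 shared and that also lacked the active marks. The interval of the unmarked peaks thus overlapped that of the H3K4me1 group and lay above those of the other groups.

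The difference from the H3K27ac group lay in CACTTGA, which occurred at 25.7% (22.1 to 29.6%) of unmarked peaks and 11.7% (9.09 to 14.6%) of the H3K27ac peaks. CACTCAA occurred at 17% (14 to 20.5%) and 15.5% (12.6 to 18.8%), with intervals that overlap. In the H3K4me1 group CACTTGA was at 22.2% (17.9 to 27.1%) and CACTCAA at 22.5% (18.1 to 27.4%). Both of these intervals overlap those of the unmarked peaks. The shares over the genome windows were 2.93% for CACTTGA and 2.44% for CACTCAA. On the strand that reads CACTTGA, the base before the core was C at 46.1% of 228 occurrences in unmarked peaks and the base after it was G at 49.6%. These shares were 39.2 and 41.6% of 711 occurrences over all NKX2-1 peaks, and 45.1 and 42.3% of 71 in the H3K27ac group. Every copy was counted where a peak held several. With the broader pattern CACTTNA, also known for NK2 factors, 56 of the 333 peaks without a core (16.8%, 13.0 to 21.3%) had a match, against 8.64% of the genome windows without a core.

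The core sat at the summit. Its median distance to the summit was 18 bases in the 207 unmarked peaks that had it, and in 127 of them (61.4%) it lay within 25 bases. The other distal groups were much alike, with medians of 17.5 bases for H3K27ac and 23.5 for H3K4me1. There 57.9 and 52.3% of the peaks with a core had it within 25 bases.

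**Figure D1:**
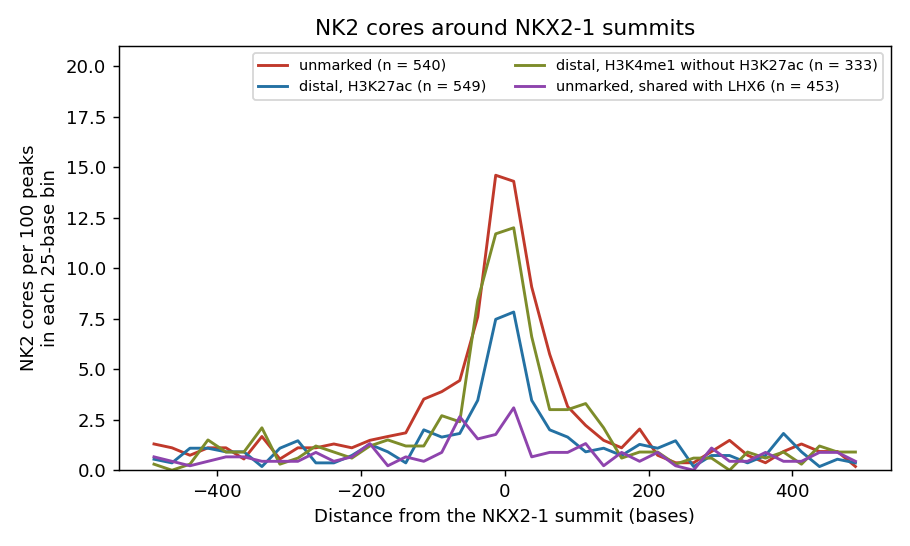
NK2 cores (CACTTGA or CACTCAA, both strands) per 100 peaks in 25-base bins against the distance in bases from the NKX2-1 summit, 1 line for each of 4 groups of peaks outside H3K4me3 regions. The unmarked peaks reach 14.6 and 14.3 cores per 100 peaks in the bins at the summit and fall to about the level of the other lines beyond 200 bases.

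Of the other motifs described here, 4 were less frequent at unmarked peaks than at H3K27ac peaks, with intervals that do not overlap. CAGATG, an E-box read by bHLH factors, occurred at 19.1% (15.8 to 22.6%) of unmarked peaks, 27.9% (24.2 to 31.8%) of H3K27ac peaks and 15.0% of genome windows. TAATTA or TAATGA, read by LIM and other homeodomains, occurred at 22.4% (19 to 26.2%), 35.2% (31.2 to 39.3%) and 18.1%. The POU octamer ATGCAAAT occurred at 1.30% (0.523 to 2.65%), 5.65% (3.87 to 7.92%) and 1.75%. TGACAG, the MEIS core, occurred at 15.6% (12.6 to 18.9%), 22.8% (19.3 to 26.5%) and 12.5%. In the H3K4me1 group CAGATG was at 24.3% (19.8 to 29.3%) and TGACAG at 20.7% (16.5 to 25.5%), with intervals that overlap those of the unmarked peaks. There TAATTA or TAATGA was at 38.7% (33.5 to 44.2%) and the octamer at 5.11% (3.0 to 8.05%), with intervals apart. For the further motifs described here the intervals of unmarked and H3K27ac peaks overlapped. The SOX letters ACAATG or ACAAAG gave 23.3% (19.8 to 27.1%), 30.1% (26.2 to 34.1%) and 28.5%. For AP-1 (TGANTCA) the shares were 6.11%, 6.92% and 5.93%, and for the forkhead core TGTTTAC they were 2.04%, 4.01% and 2.98%. The palindromic NFI site was found at 0 of 540 unmarked peaks, which allows a share of up to 0.556%. A CTCF core was found at 10 unmarked peaks (1.85%, 0.892 to 3.38%), 6 H3K27ac peaks (1.09%, 0.402 to 2.36%) and 0.0384% of genome windows. All motifs were read on both strands, and a match is a description of letters and not a bound site.

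Many unmarked peaks held more than 1 core. Counting only cores that do not overlap each other, 78 unmarked peaks (14.4%, 11.6 to 17.7%) had 2 or more in the 200 bases, against 11 of 549 H3K27ac peaks (2.0%, 1.0 to 3.56%) and 23 of 333 H3K4me1 peaks (6.91%, 4.43 to 10.2%). Over all NKX2-1 peaks there were 169 (2.97%). In the 58 unmarked peaks with exactly 2 such cores the median spacing of their starts was 20.5 bases, 35 were spaced by at most 30 bases and 33 had both on the same strand.

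In 11 unmarked peaks the cores formed a tandem array, defined after the values were seen as 3 or more cores on 1 strand at 1 repeated spacing. Over all 5683 peaks there were 13 such peaks, with 0 of the 549 H3K27ac peaks (up to 0.546% is allowed) and 0 of the 333 H3K4me1 peaks (up to 0.901%). The 2 strongest are printed to show the repeat unit.
Peak near Zfp229, chr17:21889931-21890051, plus strand: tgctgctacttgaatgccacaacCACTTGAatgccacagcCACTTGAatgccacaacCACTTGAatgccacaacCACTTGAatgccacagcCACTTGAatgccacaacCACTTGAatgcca
Peak in an intron of Braf, chr6:39608637-39608757, plus strand: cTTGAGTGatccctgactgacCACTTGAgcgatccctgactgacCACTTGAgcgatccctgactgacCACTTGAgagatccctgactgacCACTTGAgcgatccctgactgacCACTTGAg

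The peak near Zfp229, a zinc finger gene, chr17:21889786-21890181, had 6 cores spaced by 17 bases, a fold of 9.11 and a −log10 p of 58.3. The peak in an intron of Braf, which encodes a kinase of the MAPK pathway, chr6:39608493-39608936, had 15 cores on 1 strand spaced by 23 bases, a fold of 7.75 and a −log10 p of 44.7. Other arrays lay in introns of Chd7, a chromatin remodeler gene (17 cores, 6 of them in a row at 32 bases), Mpdz (24 cores, 4 in a row at 28 bases), Muc13 and Lrrc8d, and near Mettl21d (7 cores at 30 bases), Gm6816 (5 cores at 27 bases), Mecom, Dnajb8 and Gtf3a. Over all 11 arrays the −log10 p ranged from 13.2 to 58.3, and over these 9 it reached 34.8. A 32-base word at or 50 bases beside the summit occurred more than once in the reference in 9 of these 11 peaks, so the placing of reads within or between such copies bears on their height, and that was not tested. Without the 11 peaks the share of unmarked peaks with a core was 37.1% of 529.

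The share with a core changed with the strength of the peak. With all NKX2-1 peaks cut into 5 bins of about equal number by −log10 p, the unmarked peaks had the core at 17.8% of 163 in the weakest bin, 39.4% of 109, 52.6% of 137, 41.9% of 86 and 60% of 45 in the strongest. Over all NKX2-1 peaks the same shares were 14.1, 17.4, 23.4, 23.7 and 27.4%.

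The core was scarce where NKX2-1 peaks crowd together. Counting the NKX2-1 peaks within 50 kb of each summit, itself included, 338 unmarked peaks (62.6%) stood alone, while 83 (15.4%) had 5 or more, a limit chosen after the values were seen. These 83 are called peaks of dense stretches here. They came from 21 stretches. Dense stretches held 10.4% of all NKX2-1 peaks, 1.82% of the H3K27ac group, 2.40% of the H3K4me1 group and 68.4% of the unmarked peaks shared with LHX6. The core was present at 6 of the 83 (7.23%, 2.70 to 15.1%), a share whose interval holds the genome value of 5.26%, and at 201 of the other 457 (44.0%, 39.4 to 48.7%). With limits of 3 or 8 peaks the shares were 11.9 and 6.67% inside and 45.7 and 42.3% outside. No peak of a dense stretch exceeded a −log10 p of 18, and their median was 8.98 against 13.9 elsewhere. Outside dense stretches the shares in the other groups were 40.6% (35.2 to 46.2%) for H3K4me1 and 25.8% (22.1 to 29.7%) for H3K27ac.

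**Figure D2:**
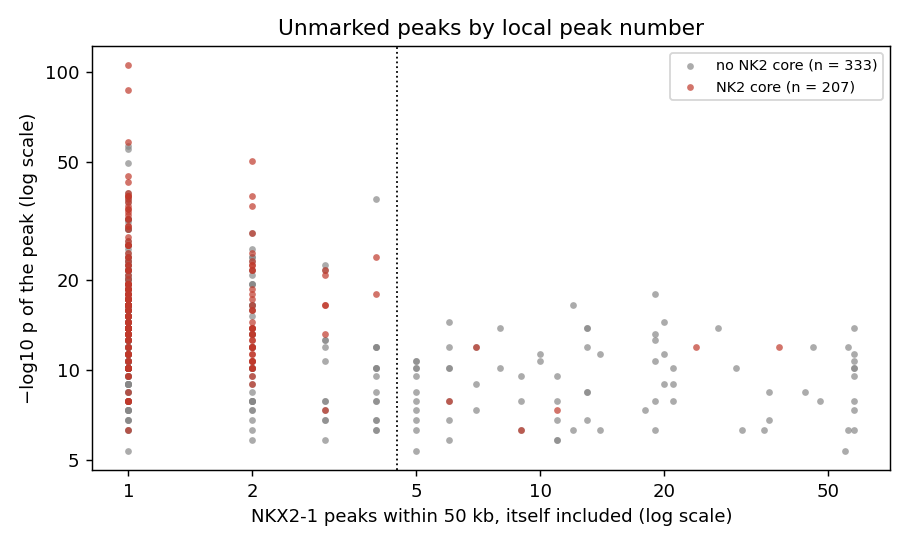
Each point is 1 of the 540 unmarked peaks, placed by the number of NKX2-1 peaks within 50 kb (log scale) and its −log10 p (log scale), red with and gray without an NK2 core. To the right of the dotted line lie the 83 peaks of dense stretches, none above 18 and 6 with a core.

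**Figure D3:**
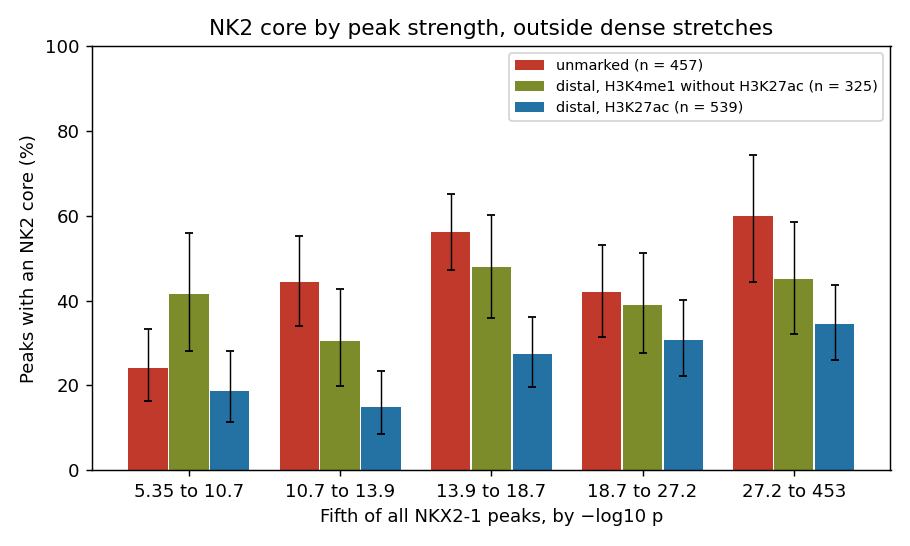
Percent of peaks with an NK2 core outside dense stretches, in 5 bins of all NKX2-1 peaks by −log10 p, for unmarked peaks and 2 groups of marked distal peaks, with exact 95% intervals. In the bins from 10.7 to 18.7 and above 27.2 the interval of the unmarked peaks starts above the upper end of the H3K27ac interval, and in the weakest bin (24.1% against 18.7%) and the fourth (41.9% against 30.6%) the intervals overlap.

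The largest stretch, chr1:90108861-90204737, held 59 NKX2-1 peaks over 95.9 kb, 17 of them unmarked, around Hjurp, Heatr7b1, Trpm8 and the Ugt1a genes, which encode glucuronosyltransferases. NKX2-1 peaks covered 41.9% of its bases, LHX6 peaks 21.1%, wild-type H3K27me3 45.7% and mutant H3K27me3 49.9%. Another, chr1:173409240-173511665 at Itln1 and Cd244, held 37 peaks, 7 of them unmarked and none with a core. A stretch at Prl2c2 and Prl2c3 on chromosome 13, which encode prolactin-family hormones, held 21 peaks, 8 of them unmarked. Further stretches lay at Speer4e, Defa21 (a defensin) and Vmn1r3 (a vomeronasal receptor) genes. A word at the summit or 50 bases beside it was repeated in the reference in 37.3% of unmarked peaks of dense stretches and 13.8% of the others. The part of such repeats in the NKX2-1 and H3K27me3 calls was not tested.

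H3K27me3 overlapped a lower share of the unmarked peaks than of all NKX2-1 peaks, and mainly in those stretches. The mutant interval lay below the share of all peaks, while the wild-type interval just held it. In wild type 33 of 540 (6.11%, 4.24 to 8.48%) overlapped an H3K27me3 region, against 8.45% of all NKX2-1 peaks and 0.751% of 8081655 windows of 300 bases that were free of the lists used for the choice. In the mutant 39 (7.22%, 5.19 to 9.74%) did, against 10.2% of all NKX2-1 peaks and 1.04% of windows. The wild-type share was 0.364% in the H3K27ac group, 4.80% in the H3K4me1 group and 37.3% of unmarked peaks shared with LHX6. In both genotypes there were 22 (4.07%, 2.57 to 6.10%), against 7.46% of all NKX2-1 peaks and 0.651% of windows. Dense stretches held 22 of the 33 and 26 of the 39. Outside them 11 of 457 (2.41%, 1.21 to 4.27%) overlapped H3K27me3 in wild type and 13 (2.84%, 1.52 to 4.82%) in the mutant, against 4.52 and 6.13% of all NKX2-1 peaks outside dense stretches. H3K27me3 and the NK2 core rarely met in wild type, where 1 of 207 peaks with a core overlapped H3K27me3, against 32 of 333 without. Outside dense stretches these counts were 0 of 201, which allows a share of up to 1.49%, and 11 of 256 (4.30%, 2.16 to 7.56%). In the mutant they were 4 of 201 (1.99%, 0.545 to 5.02%) and 9 of 256 (3.52%, 1.62 to 6.57%), with intervals that overlap.

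**Figure D4:**
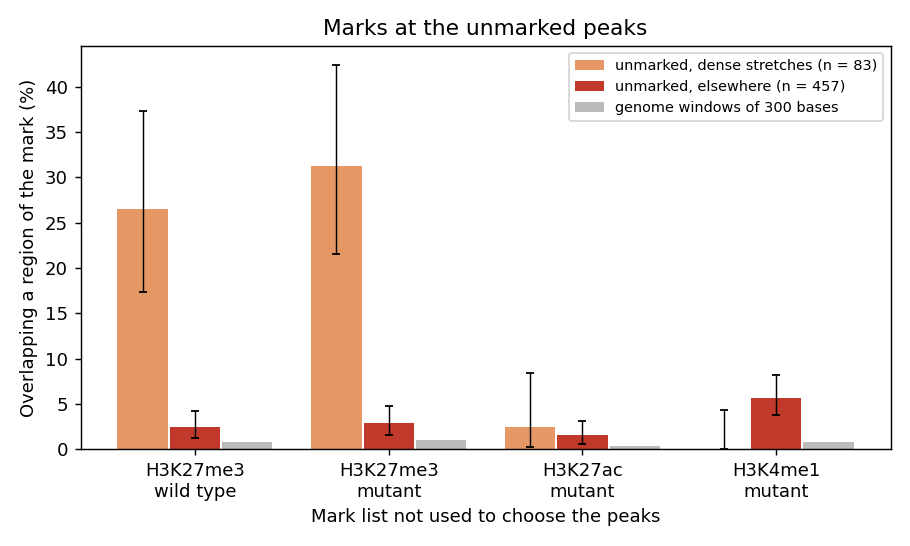
Percent of unmarked peaks that overlap regions of the 4 mark lists not used to choose them, for peaks of dense stretches and the others, with exact 95% intervals, beside 300-base genome windows. H3K27me3 reaches 26.5 and 31.3% in dense stretches and 2.41 and 2.84% elsewhere, while mutant H3K4me1 is at 0 of 83 and 5.69% of 457.

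The regions were mostly modest. Over the 35 wild-type regions at unmarked peaks the median fold was 3.63, against 4.02 over that list. The highest wild-type folds outside dense stretches lay near Fcgr3, an Fc receptor gene of myeloid cells, with a fold of 13.4 in wild type and 15.1 in the mutant, and at an exon of Ctdsp1, which encodes a phosphatase that restrains neuronal genes, with 10.9 in wild type and 15.5 in the mutant. These 2 were picked after their values were seen. The folds come from separately scaled lists and give no change between genotypes.

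H3K27me3 was called in the mutant alone at 17 unmarked peaks (3.15%, 1.84 to 4.99%), against 2.69% of all NKX2-1 peaks and 0.388% of windows. It was called in wild type alone at 11 (2.04%, 1.02 to 3.62%), against 0.985% of all peaks and 0.0992% of windows. The mutant list is the longer one, with 28077 regions against 21252. Outside dense stretches there were 8 in the mutant alone (1.75%, 0.759 to 3.42%) and 6 in wild type alone (1.31%, 0.483 to 2.84%). Over all NKX2-1 peaks outside dense stretches these shares were 2.16 and 0.55%, both inside those intervals. In these bulk samples, fewer cells with a mark and less of the mark per cell cannot be told apart. Of the 17, 9 had a wild-type H3K27me3 region within 1 kb of the peak, and 14 within 10 kb.

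Among the 8, the peak near Bmp2, which encodes a bone morphogenetic protein ligand, chr2:133375916-133376223, was 1.82 kb from the TSS with a −log10 p of 24. The mutant H3K27me3 region there was 5686 bases long with a fold of 17.5 but shared only 24 bases with the peak, and a wild-type region lay 258 bases away. At Zfp229 the mutant region covered 279 bases of the peak with a fold of 8.15, and a wild-type region lay 85 bases from the peak. In introns of Lrba, 165 kb from the TSS of the eye and midbrain gene Mab21l2, and of Ntng1, which encodes the synaptic adhesion protein netrin-G1, the mutant regions had folds of 7.32 and 3.59, with wild-type regions at 416 and 94 bases. At Bmpr1b, the gene of a BMP type I receptor, the mutant region was weak, with a fold of 3.04 and a −log10 p of 6.13, and the nearest wild-type region was 20 kb away. A wild-type region of the mark lay within 1 kb of 5 of the 8 peaks, and at the other 3 it was 6.56, 20 and 820 kb away.

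Enhancer marks called in the mutant were also few. Mutant H3K27ac overlapped 9 unmarked peaks (1.67%, 0.765 to 3.14%), against 0.387% of the windows, and mutant H3K4me1 overlapped 26 (4.81%, 3.17 to 6.98%), against 0.833% of the windows. Over all NKX2-1 peaks, most of which carry these marks in wild type, the shares were 65.1 and 63.3%. Both marks met at 3 peaks, 1 or the other at 32, and 458 unmarked peaks (84.8%, 81.5 to 87.7%) overlapped no mark in any list of either genotype. That share was 12.4% over all NKX2-1 peaks and 54.7% of unmarked peaks shared with LHX6. The choice had already removed overlaps with the lists used for exclusion, so the contrast with all peaks is in large part the choice itself. Dense stretches held 2 of the 9 with H3K27ac and 0 of the 26 with H3K4me1, and 0 of their 83 peaks allows a share of up to 3.61%.

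Both marks were found mostly close to the histone mark regions used for the exclusion. Such a mark region lay within 1 kb of 75 unmarked peaks, 1 to 10 kb from 187 and farther from 278, and the median distance was 11 kb. LHX6 peaks, also used for the exclusion, were left out of this distance. Mutant H3K27ac overlapped 7 of the 75 (9.33%, 3.84 to 18.3%), 2 of the 187 and 0 of the 278 (which allows up to 1.08%). Genome windows at the same distances had 3.97, 0.357 and 0.0766%. Mutant H3K4me1 overlapped 15 of the 75 (20%, 11.6 to 30.8%), 1 of the 187 and 10 of the 278 (3.60%, 1.74 to 6.52%), and the windows had 6.74, 0.818 and 0.306%. With windows at like distances, the unmarked peaks' share of H3K4me1 was thus above the windows both within 1 kb and beyond 10 kb. A wild-type region of the same mark lay within 1 kb of 5 of the 9 H3K27ac peaks and 12 of the 26 H3K4me1 peaks.

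**Figure D5:**
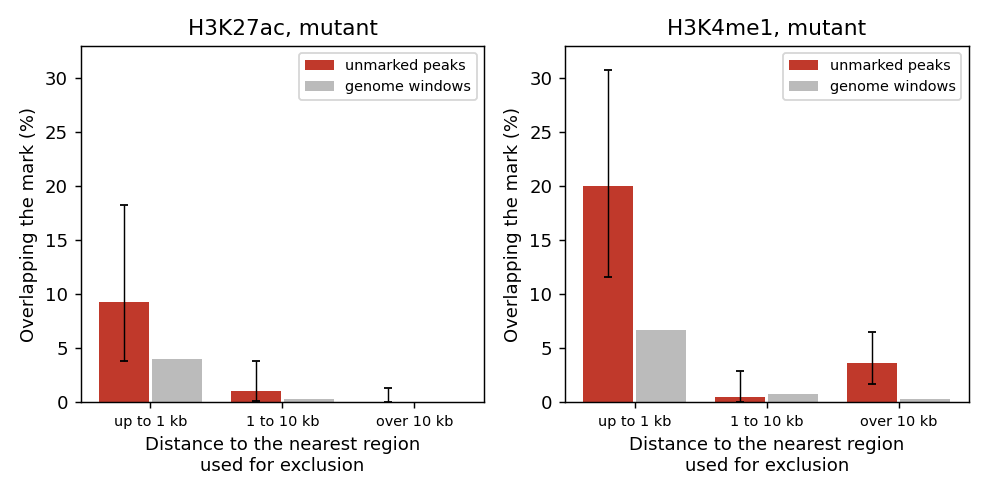
Percent of unmarked peaks (75, 187 and 278 from left to right, exact 95% intervals) and of 300-base genome windows that overlap mutant H3K27ac (left) or mutant H3K4me1 (right), by distance to the nearest histone mark region used for exclusion, LHX6 peaks left out. Mutant H3K4me1 reaches 20% within 1 kb and 3.60% beyond 10 kb, against 6.74 and 0.306% of windows.

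The 3 peaks with both mutant marks lay near Lama4, Snx19 and Gm5576. At Lama4 the mutant H3K27ac region had a fold of 3.87 and the H3K4me1 region a fold of 3.26, with wild-type regions of the same marks 157 and 173 bases away. At Snx19, a sorting nexin gene, both mutant regions reached only the edge of the peak, sharing 29 and 38 bases with it, with the nearest wild-type H3K27ac region 32 bases and the nearest wild-type H3K4me1 region 49.8 kb away. H3K27ac without H3K4me1 was called, among others, near Rplp1, Alad and Sema3f, the gene of a repellent guidance ligand, and in an intron of Qrsl1. The region at Sema3f had a fold of 3.87 and covered 50.8% of the peak.

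For H3K4me1, the peak near Sox12, the gene of an SRY-related factor of the SoxC group, lay 4.97 kb from the TSS. Its mutant region was 2942 bases long with a fold of 6.01, and the nearest wild-type H3K4me1 region lay 211 bases away. Away from wild-type regions, the peak near Gm6189 was covered whole by a mutant region with a fold of 3.73, and the nearest wild-type H3K4me1 was 47.9 kb off. An intronic peak of Foxp2, the gene of a forkhead factor of striatal neurons, was covered to 26.1% by a mutant region with a fold of 3.45, and the nearest wild-type region lay 42.3 kb off. Other peaks with mutant H3K4me1, named after their values were seen, lay in introns of the transcription factor genes Pbx3 and Zfp423, where wild-type regions were 31 bases and 2.88 kb away. Over the list of mutant H3K4me1 the median fold was 4.40, and it was 3.92 over the 27 regions at unmarked peaks.

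Near the limit of the choice, the unmarked peaks closest to a histone mark region used for exclusion lay 7 bases from it near Nmur2 and 9 bases near Chchd3. The peaks that just failed overlapped an excluded region by 8 bases near Mrpl35 and near Gfra1. In all 21 peaks failed by an overlap of at most 50 bases.

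Summits of unmarked peaks lay between protein-coding genes in 311 cases (57.6%, 53.3 to 61.8%), in introns in 197 (36.5%, 32.4 to 40.7%) and in exons in 32 (5.93%, 4.09 to 8.26%). Over all NKX2-1 peaks these shares were 56.5, 35.4 and 8.13%. A protein-coding TSS was within 50 kb of 283 (52.4%, 48.1 to 56.7%), against 62.9% of all NKX2-1 peaks. One was within 2.5 kb of 31 (5.74%, 3.93 to 8.05%), against 26.8%. The choice removed peaks in H3K4me3 regions, which mark promoters, so a lower share close to a TSS than over all peaks follows from it. Within 2.5 kb the share was 3.28% in the H3K27ac group, 2.70% in the H3K4me1 group and 7.06% of unmarked peaks shared with LHX6. The median distance of the unmarked peaks to a TSS was 42.7 kb. It was 51.4 kb in the H3K27ac group. The nearest TSSs themselves overlapped wild-type H3K4me3 at 267 of 467 (57.2%, 52.5 to 61.7%) and wild-type H3K27me3 at 121 (25.9%, 22.0 to 30.1%). For the H3K27ac group these shares were 60% (55.6 to 64.4%) and 22.7% (19.1 to 26.7%), with overlapping intervals. At the TSSs nearest to all NKX2-1 peaks they were 74.6 and 19.7%, and over all 45939 protein-coding TSSs 62.9 and 16.2%. In the H3K4me1 group they were 58.1% (52.5 to 63.5%) and 27.3% (22.5 to 32.5%), with intervals that overlap those of the unmarked peaks. The choice removed peaks in H3K4me3 regions, so an H3K4me3 share below that of all NKX2-1 peaks follows from it and is not a result. That removal also bears on the H3K4me3 share below that of all protein-coding TSSs, so this contrast is not a result either, though the intervals were apart. The 45939 TSSs also count every start site of a gene, whereas the 467 are nearest ones only. H3K27me3 was more frequent at the unmarked peaks' TSSs than at all protein-coding TSSs, with intervals apart. It was also more frequent than at the TSSs nearest to all NKX2-1 peaks, with intervals apart. The latter include TSSs of the removed H3K4me3 peaks, so that contrast holds the choice as well. The H3K27ac and H3K4me1 groups, chosen without H3K4me3 too, had H3K27me3 intervals that overlap that of the unmarked peaks. Of the unmarked peaks' 121 TSSs with wild-type H3K27me3, 108 also overlapped wild-type H3K4me3.

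Of 15 lists of genes with known roles in this tissue or outside it, 8 had no gene with an unmarked peak within 50 kb of a TSS: the SHH pathway, progenitors and cell cycle, pallial neurons, the oligodendrocyte lineage, microglia, NKX2-1 targets in lung and thyroid, synaptic adhesion and housekeeping genes. These 8 lists were near few NKX2-1 peaks of any kind, 0.0352 to 0.317% of all peaks, and 0 of 540 allows a share of up to 0.556%. Among 34 MGE and ventral telencephalic transcription factors 2 had one, and 22 had any NKX2-1 peak. These were the homeobox genes Gbx1, with a peak 2.95 kb from the TSS and a fold of 5.25, and Gbx2, with a peak at 32.7 kb that held a core. The list was near 0.37% of unmarked and 0.739% of all NKX2-1 peaks, which rest on 2 and 42 peaks. Both genes also stand on the list of 10 cholinergic genes, near 0.37 and 0.0704%. Among 29 genes of lateral and caudal ganglionic identity 3 had one: Penk, the gene of an opioid peptide precursor, at 1.51 kb with a fold of 4.26, Adora2a, the gene of an adenosine receptor of striatal neurons, at 39.2 kb with a core, and Foxp2 at 45.8 kb. Over the members of that list 12 had any NKX2-1 peak. In percent of peaks, the ganglionic list was near 0.556% of unmarked and 0.299% of all NKX2-1 peaks, which rest on 3 and 17 peaks.

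Among 30 genes of cortical interneurons, and also among 25 of axon guidance, only Nrp1, the gene of a receptor for class 3 semaphorins and VEGF, had unmarked peaks near a TSS. There were 2, chr8:130852813-130853154 at 30 kb with a fold of 5.10 and chr8:130861168-130861467 at 21.7 kb with a fold of 4.57. Both are printed above and held the core, at 31 and 7 bases from the summit. The interneuron list was near 0.37% of unmarked and 0.387% of all NKX2-1 peaks, and the guidance list near 0.37 and 0.282%. Of 20 WNT and BMP genes 2 had one, Bmp2 and Bmpr1b, described above, with 0.37% of unmarked and 0.141% of all peaks near the list. Of 12 genes of endothelium, mural cells and blood 1 had one, Kdr, the gene of a VEGF receptor, at 29.1 kb with a core. It was the only NKX2-1 peak near that list. None of these list shares rests on more than 3 unmarked peaks.

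Inside the bodies of listed genes but mostly far from a TSS, unmarked peaks were found in Erbb4, the neuregulin receptor gene of interneurons, in Slit3 and Epha3 of the guidance list, and in Cntn5, Cdh13, Opcml, Lsamp and Pcdh15 of the adhesion list, among others. This count was added after the TSS counts were seen. The folds were 3.73 to 5.70, with cores in the peaks of Opcml, Lsamp and Slit3. None of the peaks named in this list overlapped any of the 4 mark lists left free by the choice, and the intronic peak of Foxp2 with mutant H3K4me1 is described above.

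The 10 protein-coding genes with the most unmarked peaks in their body or within 50 kb of a TSS drew most or all of these peaks from dense stretches. There were 17 peaks for Hjurp, 16 for Heatr7b1, 12 for Ugt1a1, 10 for Dnajb3, 8 each for Trpm8 and Ugt1a2, and 6 each for Cd244 and Itln1, among others. Neighboring genes share these peaks, since the stretch around Hjurp held 17 unmarked peaks and that of Itln1 and Cd244 held 7. Of all NKX2-1 peaks counted likewise, 17 of 55 for Hjurp and 16 of 58 for Heatr7b1 were unmarked. Outside dense stretches 43 genes had 2 or more, again with peaks shared between neighboring genes. The highest numbers were 4 at Ceacam15 and Grlf1 within 6.16 kb, none with a core, and 3 at Btbd9, Glo1 and Dnahc8, 2 of them with a core.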

How the data were processed

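Chromatin immunoprecipitation and sequencing was done on mouse embryos at embryonic day 13.5, and samples were grouped by antibody and genotype from the labels. Peak lists of 10 libraries entered; 10 input and IgG libraries were not analysed here. The submitters' processing notes name BWA 0.6.2, MACS2 2.1.0, CASAVA 1.8.2 and bcl2fastq 1.8.4, with build mm9 (NCBIM37). Per the file headers, the authors called peaks with MACS version 2.1.0.20140616 on merged alignments against input at a p of 1.0e-05, with no local background, tags extended to 250 bases and 1 tag kept per position. H3K4me3 was called against another input than the other marks, per the file headers. How many libraries were merged is not given in the sources used here. The deposited values used are the −log10 p, the fold enrichment (a ratio over control) and the pileup (a signal, in extended tags), and they rank peaks only within 1 list. Depth is the authors' tag count in the headers, without duplicates.

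Summits of 1 region were merged, and the strongest gave its values. An overlap was at least 1 base. Classes, distances and motifs used Python 3.11.15 with pandas 2.3.3, pysam 0.24.0, scipy 1.17.1 and numpy 2.4.6, samtools 1.23.1, and matplotlib 3.10.9 for figures. Overlaps, covered bases and distances were checked against bedtools 2.31.1 in 27 sums, and the motif search was tested on 2000 simulated windows, with 0 mismatches. GENCODE vM1 gave 22350 protein-coding genes with 45939 start sites of protein-coding transcripts. The reference sequence is NCBIM37, and coordinates count from 1. Repeats were measured as reference copies of 32-base words at the summit and 50 bases to either side. Floors for counts of 0 are 3 counts of the total.

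The unmarked peaks and the 15 gene lists (280 of 282 entries matched) were chosen with earlier results of these data known. Peaks named are the 12 strongest, the 8 strongest of each kind with a mark, and those near listed genes; others are said to be named after their values were seen. A planned exclusion of masked repeats from this rule could not be applied because the reference is not masked. Some loci are not reported here.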

Additional observations from a re-analysis of the deposited data

How the results depend on the processing

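For 11 results, the number of unmarked peaks and 10 shares of them, 85 values were recomputed under 13 alternatives; 72 stayed within the 95% interval of the reported share or within 1.5 times the reported number. The share with an NK2 core, 38.3% as reported, was 45.7% for NKX2-1 peaks with −log10 p of at least 10, 31.5% in 100 bases, 43.0% in 400 bases, 25.7% for CACTTGA alone, 17% for CACTCAA alone and 44.0% without dense stretches. Without dense stretches H3K27me3 was at 2.41% in wild type (6.11% reported), 2.84% in the mutant (7.22%) and 1.75% in the mutant alone (3.15%), and it was at 5.0% in the mutant for NKX2-1 peaks with −log10 p of at least 10. Mutant H3K4me1 rose to 7.25% of 717 peaks where an overlap needed 50% of the peak (4.81%). With genes of every biotype, 69.3% lay within 50 kb of a start site (52.4%) and 10% within 2.5 kb (5.74%). The alternatives without dense stretches, with unrepeated words alone and without tandem arrays were added after the data were seen. Leaving out peaks on masked repeats was not run, since the reference is not masked. No paired analysis was possible because each antibody and genotype has 1 peak list, and only input libraries share replicate numbers. Regions just under the authors' threshold of p 1.0e-05 count as absent, so an unmarked peak is one without a called region at these depths, and a mark called in 1 genotype may lie just under the threshold in the other.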
